A study of Mus musculus with 8 samples.

Results

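Macrophages release proteins that act on bone-forming cells and on blood vessels, and 10 genes of such proteins were followed here: Vegfa, Vegfb, Pdgfa, Pdgfb, Osm, Spp1, Sema4d, Hbegf, Sparc and Csf1. They were taken by gene symbol from a table of 26848 genes, with each of the 10 symbols found, and all 10 passed the filter on low counts that left 16006 genes tested. The RNA came from RAW264.7, an established mouse cell line with macrophage character, grown on polyetheretherketone (PEEK), a polymer used in bone implants. The surface was smooth PEEK in 4 libraries and nano- and microstructured PEEK in the other 4, numbered smooth 1 to 4 and structured 1 to 4 here. The line, the material and the absence of any further named treatment were common to both groups, and all libraries come from this 1 line. The labels do not state separate cultures or days for the biological replicates, so each p-value rests on how far these samples vary among themselves, and that variation may be technical.

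In the repair of bone around an implant, macrophages, vessels and osteoblasts signal to one another. Ligands of the VEGF family act on endothelial receptors and promote vessel growth, and those of the PDGF family recruit pericytes and mesenchymal cells. Oncostatin M (Osm) acts on osteoblast precursors through the gp130 receptor, osteopontin (Spp1) is a secreted phosphoprotein that binds integrins and CD44 on bone cells, and semaphorin 4D (Sema4d) signals through plexin-B1 on osteoblasts and holds back bone formation. HB-EGF (Hbegf) is an EGF receptor ligand released from the membrane by proteases, SPARC (Sparc) is a collagen-binding matrix protein also called osteonectin, and CSF-1 (Csf1) is the growth factor that macrophages and osteoclast precursors depend on.

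Start-site windows are shown for the 4 members whose RefSeq start lay within 100 bases of the start in the deposited table. They are the VEGF ligands Vegfa and Vegfb, the most abundant member (Spp1) and the least abundant one (Csf1), and none is shown for Sema4d. Each window has 300 bases, 250 before and 50 after the RefSeq start on GRCm38.p6, and is written 5′ to 3′ on the gene's strand. In all, 7 of the 10 members had a window. Capitals mark GGGCGG (the GC box, or its reverse complement CCGCCC) and GAGGAAG (a purine-rich motif of the ETS type bound by the myeloid factor PU.1), each searched on both strands. The Vegfa window lies at chr17:46032328-46032627 (minus strand), Vegfb at chr19:6987602-6987901 (minus strand), Spp1 at chr5:104434861-104435160 (plus strand) and Csf1 at chr3:107760420-107760719 (minus strand).
Vegfa: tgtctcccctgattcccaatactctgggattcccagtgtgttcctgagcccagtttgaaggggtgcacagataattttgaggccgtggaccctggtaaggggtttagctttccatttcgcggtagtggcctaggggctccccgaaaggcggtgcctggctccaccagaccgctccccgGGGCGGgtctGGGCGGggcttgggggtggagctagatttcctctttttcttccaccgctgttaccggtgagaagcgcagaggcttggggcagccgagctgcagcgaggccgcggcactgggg
Vegfb: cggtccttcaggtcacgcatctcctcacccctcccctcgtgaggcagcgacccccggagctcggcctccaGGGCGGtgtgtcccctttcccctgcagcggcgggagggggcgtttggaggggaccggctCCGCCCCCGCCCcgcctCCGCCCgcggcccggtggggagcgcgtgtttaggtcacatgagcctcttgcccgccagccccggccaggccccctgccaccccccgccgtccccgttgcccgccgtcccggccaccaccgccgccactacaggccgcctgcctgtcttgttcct
Spp1: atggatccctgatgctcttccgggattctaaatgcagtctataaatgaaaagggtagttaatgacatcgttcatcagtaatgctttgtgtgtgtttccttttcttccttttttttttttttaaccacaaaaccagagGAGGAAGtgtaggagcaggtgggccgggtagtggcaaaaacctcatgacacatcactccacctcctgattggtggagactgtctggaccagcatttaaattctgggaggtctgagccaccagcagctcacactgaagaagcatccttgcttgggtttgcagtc
Csf1: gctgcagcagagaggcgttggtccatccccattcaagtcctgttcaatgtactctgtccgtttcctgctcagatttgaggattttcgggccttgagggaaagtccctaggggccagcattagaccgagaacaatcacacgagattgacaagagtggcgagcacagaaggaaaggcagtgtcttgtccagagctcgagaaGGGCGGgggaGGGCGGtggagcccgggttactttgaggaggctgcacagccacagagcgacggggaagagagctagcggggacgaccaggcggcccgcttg
The Vegfa window held 2 GC boxes, with first bases at -72 and -62 from the start, and the Csf1 window 2, at -51 and -41. The Vegfb window held 4, at -180 on the gene's strand and at -121, -115 and -104 on the opposite strand, of which those at -121 and -115 lie end to end. The Spp1 window held no GC box and 1 GAGGAAG at -113. Of 32817 start-site windows of the same length, 35.6% held a GC box and 13.6% held GAGGAAG. No window of these 4 held ACGTG (19.6% of all windows) or TGANTCA, the AP-1 motif (7.81%). ACGTG is a form of the core of the hypoxia response element. The other form, GCGTG, was not searched for and stands in the Vegfb window. GC content was 62.0% for Vegfa, 75.3% for Vegfb, 58.7% for Csf1 and 45.3% for Spp1, against a median of 52.7% over all windows. These matches describe the letters of the windows and are not measured binding sites.

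Library totals ran from 64479829 to 73098735 deposited count units. Of 11 macrophage markers 10 were tested and none was called different between surfaces. Their summed level was 3388.7 to 3560.7 FPKM on smooth and 3543.6 to 3645.1 FPKM on structured PEEK, with 1 marker (Mertk) under 1 FPKM. The largest part was Lyz2 (1531.2 to 1790.8 FPKM over all libraries), and Adgre1 had 2.85 to 4.05 FPKM. Cd14 was higher in every structured library than in any smooth one, without passing (edgeR adjusted p = 0.065). Transcripts of other cell types were also counted. Neutrophil markers summed to 15.3 to 17.5 FPKM on smooth PEEK, most of it Mmp9 (14.4 to 16.8 FPKM), with 7 of the 12 (Ngp, Ltf, Mmp8, Elane, Mpo, Cxcr2 and Retnlg) at 0 in every smooth library. On structured PEEK they summed to 22.9, 56.7, 57.2 and 61.4 FPKM in structured 1 to 4, and 5 of the 6 tested were called higher. Mmp9, the other tested marker, lay lower there, at 13.0 to 14.2 FPKM, and was not called. The 16 hepatocyte markers summed to 208.8, 79.5, 73.6 and 52.5 FPKM in smooth 1 to 4 and to 83.6, 69.8, 159.7 and 287.6 FPKM in structured 1 to 4, with none called. The 12 skeletal muscle markers summed to 10.2 to 30.0 FPKM on smooth and 9.67 to 12.2 FPKM on structured PEEK, with 3 called lower. These were Tnnc2, Ckm and Atp2a1, with log2 fold changes, structured minus smooth, of -5.11, -2.65 and -2.70. Most of the structured sum was Tnni2, at 8.0 to 9.15 FPKM there and 6.01 to 9.99 FPKM on smooth PEEK. Tnni2 was the only marker of the 12 with a positive log2 fold change (0.10). For hepatocyte transcripts, the results were refitted with a liver covariate and without smooth 1, structured 3 and structured 4 together. For neutrophil transcripts, a fit kept structured 1 as the only structured library. Its neutrophil sum still lay above the smooth range, so the part of these transcripts was not tested. No setting was aimed at skeletal muscle transcripts, and their part was not tested either.

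Of the 10 members, Sema4d fell by 19.3% on structured PEEK, past the threshold (edgeR quasi-likelihood test, Benjamini-Hochberg adjusted p under 0.05), and the other 9 did not pass. Vegfa and Vegfb had lower mean values on structured PEEK without passing, and the log2 fold changes of Spp1, Osm and Pdgfb were 0.05, -0.01 and -0.15. Over all 16006 genes 3.75% were called, and 2.75% were called lower, against 1 of the 10 members called lower and 0 called higher. The FPKM values of the surfaces did not overlap for 2 members, Vegfb and Sema4d, and for 12.2% of all tested genes. The log2 fold change, given throughout as structured minus smooth, was negative for 6 members and positive for 4, with a median of -0.08 against 0.006 over all tested genes. At an unadjusted p under 0.05 stood 3 members (Vegfa, Vegfb and Sema4d) and 18.7% of all tested genes. RNA was taken from whole cultures, so fewer cells of a type and less RNA per cell cannot be told apart.

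**Figure D1:**
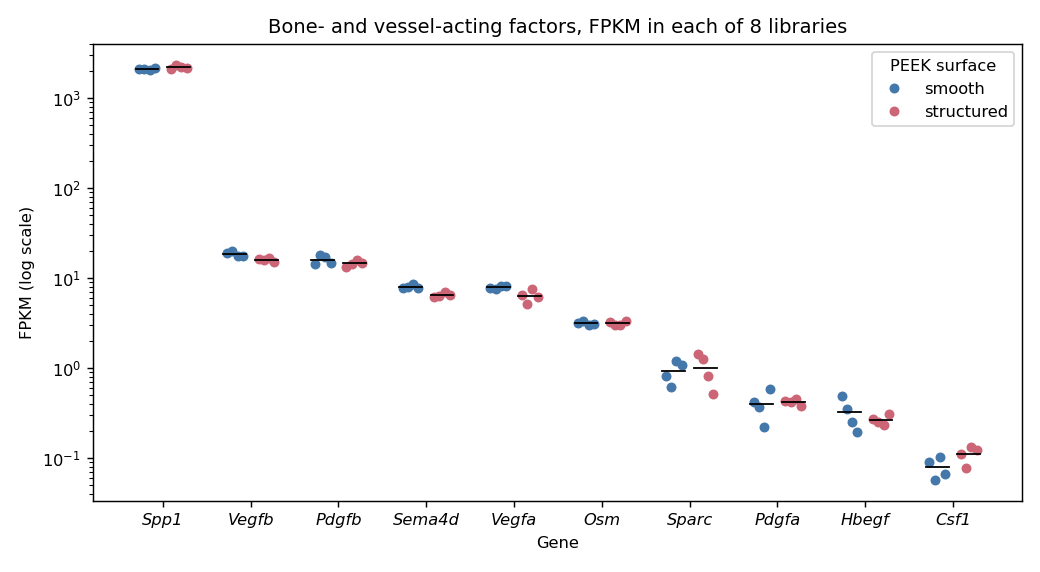
FPKM (fragments scaled to gene length and library depth, log axis) of the 10 genes in each library, with points for the 4 smooth (blue) and 4 structured (red) libraries and a black line at each group's mean, genes ordered by mean. Spp1 lies between 2065.2 and 2352.1 FPKM, 5 genes lie between 3.01 and 20.2 FPKM, and Sparc, Pdgfa, Hbegf and Csf1 lie between 0.057 and 1.42 FPKM.

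By FPKM, which is per length and so can be compared between genes, the members spanned a wide range in these cells. Spp1 had the highest mean over the 8 libraries, 2160.9 FPKM, and ranked 16 among the tested genes. Vegfb (17.3 FPKM) and Pdgfb (15.3 FPKM) came next, with overlapping ranges but Vegfb above Pdgfb in 8 of 8 libraries. Sema4d (7.24 FPKM) and Vegfa (7.15 FPKM) could not be ordered, since Sema4d was the higher in 5 libraries of 8. Osm (3.17 FPKM) lay near the median tested gene (3.64 FPKM). Sparc (0.966 FPKM) was above Pdgfa (0.411 FPKM) in 8 libraries though their ranges overlapped, and Pdgfa and Hbegf (0.294 FPKM) overlapped, with Pdgfa the higher in 6. Csf1 was the lowest, at 0.0952 FPKM, with 23 to 54 count units per library.

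Among the angiogenic ligands, Vegfa (chr17:46016993-46032369, minus strand), the main growth factor of endothelial cells, stood at 7.69, 7.53, 8.22 and 8.23 FPKM in smooth 1 to 4 and at 6.50, 5.15, 7.60 and 6.24 FPKM in structured 1 to 4. Structured 2 was the lowest and structured 3 overlapped the smooth libraries, while the other 3 structured libraries lay under all smooth ones. The group means were 7.92 ± 0.358 and 6.37 ± 1.01 FPKM (SD, n = 4 per group). In the fit the log2 fold change was -0.32 ± 0.09 (SE; 95% interval -0.53 to -0.11; edgeR adjusted p = 0.0888). Without structured 3 Vegfa passed, at -0.41 and an adjusted p of 0.027, and it passed with DESeq2 as well (adjusted p = 0.012).

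Vegfb (chr19:6982473-6987651, minus strand), a related ligand of the receptor Flt1, stood at 18.9, 20.2, 17.4 and 17.7 FPKM on smooth and at 16.2, 15.9, 16.8 and 15.2 FPKM on structured PEEK. Every structured library lay under every smooth one. Means were 18.5 ± 1.26 and 16.0 ± 0.673 FPKM (SD, n = 4 per group). Its log2 fold change of -0.22 ± 0.06 (SE; 95% interval -0.34 to -0.09) missed the threshold (edgeR adjusted p = 0.0642), and DESeq2 put it inside (adjusted p = 0.0276). Summed, Vegfa and Vegfb came to 25.6 to 27.7 FPKM on smooth and to at most 24.4 FPKM on structured PEEK (means 26.5 ± 0.92 and 22.4 ± 1.53 FPKM, SD, n = 4 per group). Vegfa made up 27.2 to 32.1% of that sum on smooth and 24.5 to 31.1% on structured PEEK, so the balance of the pair overlapped between surfaces while their sum did not. No test was made of the sum, since its members were chosen with their values known.

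Pdgfb (chr15:79995874-80014977, minus strand), whose product attracts pericytes to vessels, stood at 14.2, 18.2, 17.1 and 14.8 FPKM on smooth and at 13.4, 14.5, 15.7 and 14.6 FPKM on structured PEEK. The ranges overlapped, and the log2 fold change was -0.15 ± 0.08 (SE; 95% interval -0.33 to 0.03; edgeR adjusted p = 0.375), or -0.08 without smooth 2, the library with the highest Pdgfb. Pdgfa (chr5:138976014-138997370, minus strand), the partner chain, stood far lower, at 0.418, 0.373, 0.223 and 0.583 FPKM on smooth and 0.435, 0.421, 0.455 and 0.378 FPKM on structured PEEK. All structured values fell inside the smooth range, and the log2 fold change was 0.08 ± 0.28 (SE; 95% interval -0.53 to 0.68; edgeR adjusted p = 0.928). Without smooth 3, the library with the lowest Pdgfa, its log2 fold change was -0.12. Pdgfa made up 1.28 to 3.80% of the summed FPKM of the 2 chains on smooth and 2.53 to 3.14% on structured PEEK, so nearly all PDGF transcript counted here was Pdgfb on both surfaces. Pdgfa shares 813 exon bases with the antisense gene 6330403L08Rik (0.152 FPKM), and whether the counting separated their reads by strand is not given.

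None of the 6 tested VEGF and PDGF ligand genes was called (median log2 fold change -0.18), and none of 5 tested receptor genes (median -0.23), in a list of which Flt4 and Pdgfra were too low to test. Vegfc, a ligand of lymphatic vessels and the most abundant ligand gene outside the members, had means of 5.57 ± 0.421 and 5.13 ± 0.28 FPKM (SD, n = 4 per group) and a log2 fold change of -0.12 ± 0.08 (SE; edgeR adjusted p = 0.495). Nrp2, a VEGF co-receptor and the most abundant receptor gene of the list, had 62.6 ± 3.53 FPKM on smooth and 56.8 ± 1.21 FPKM on structured PEEK. Its groups did not overlap, as for 12.2% of all tested genes. Its log2 fold change was -0.15 ± 0.04 (SE; edgeR adjusted p = 0.0536), just outside the threshold. Endothelial markers, 7 genes each under 1 FPKM, summed to 0.526 to 0.713 FPKM on smooth and 0.353 to 0.853 FPKM on structured PEEK.

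**Figure D2:**
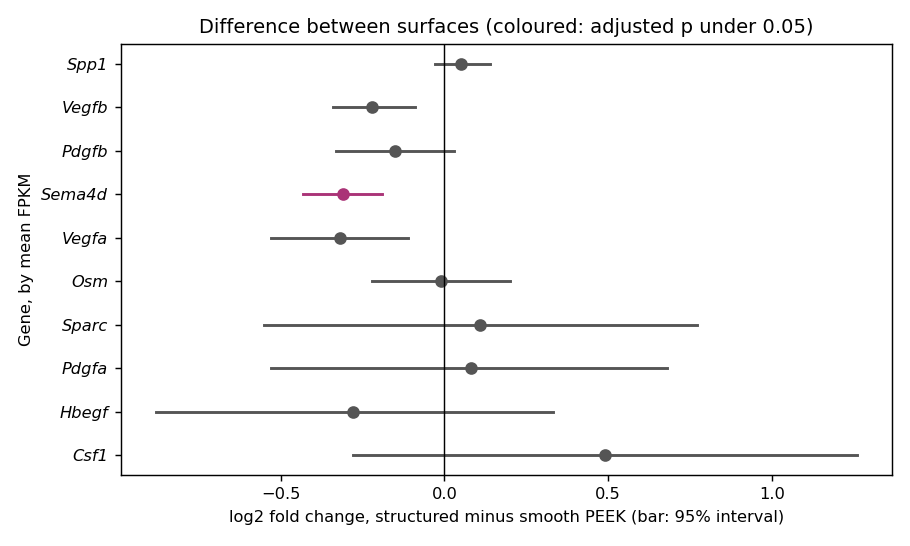
Log2 fold change of the 10 genes, structured minus smooth PEEK (points), with approximate 95% intervals derived from the edgeR test (bars), ordered by mean FPKM from top to bottom, and the 1 gene with an adjusted p under 0.05 in colour. The intervals of Vegfa, Vegfb and Sema4d lie left of 0, and those of the 4 genes under 1.5 FPKM at the bottom are the widest.

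Osm (chr11:4236420-4241026, plus strand), a cytokine of the interleukin-6 family, stood at 3.21, 3.36, 3.04 and 3.08 FPKM on smooth and at 3.28, 3.02, 3.01 and 3.34 FPKM on structured PEEK. The values of both surfaces covered nearly the same range. Its log2 fold change was -0.01 ± 0.10 (SE; 95% interval -0.22 to 0.20; edgeR adjusted p = 0.973), so a change of more than about 0.2 on the log2 scale in either direction lies outside the interval. Of 10 tested genes of the gp130 pathway none was called (median log2 fold change -0.05). Jak1, a kinase bound to gp130 and the most abundant of them, had 20.0 ± 0.817 and 18.8 ± 0.599 FPKM (SD, n = 4 per group) and a log2 fold change of -0.10 ± 0.04 (SE; edgeR adjusted p = 0.264). Osmr, the receptor chain for oncostatin M, was too low to be tested, with at most 0.00878 FPKM in any library.

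Spp1 (chr5:104435118-104441050, plus strand) stood at 2083.9, 2127.1, 2065.2 and 2190.3 FPKM in smooth 1 to 4 and at 2097.7, 2352.1, 2212.8 and 2158.4 FPKM in structured 1 to 4. Structured 2 and 3 lay above all smooth libraries and the other 2 inside their range. Means were 2116.6 ± 55.5 and 2205.2 ± 108.6 FPKM (SD, n = 4 per group), and the log2 fold change was 0.05 ± 0.04 (SE; 95% interval -0.03 to 0.14; edgeR adjusted p = 0.538). This was the narrowest interval of the 10 members, and the log2 fold change was 0.016 without structured 2 and turned its sign when the trend with GC content and length was removed (-0.0083). Spp1 shares 309 exon bases on the same strand with the predicted gene Gm42793 (4.93 FPKM), whose reads could be split with it. None of 7 tested osteopontin receptor genes was called (median log2 fold change 0.08). Itga4, an integrin chain and the most abundant of them, had 69.8 ± 5.51 and 74.9 ± 9.81 FPKM (SD, n = 4 per group) and a log2 fold change of 0.10 ± 0.08 (SE; edgeR adjusted p = 0.593). Osteoclast markers, of which 6 were tested and none called, summed to 63.5 to 69.5 FPKM on smooth and 61.3 to 74.7 FPKM on structured PEEK.

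Sema4d (chr13:51685529-51793673, minus strand) stood at 7.70, 7.92, 8.51 and 7.85 FPKM in smooth 1 to 4 and at 6.10, 6.35, 6.95 and 6.52 FPKM in structured 1 to 4. All 4 structured libraries lay under all 4 smooth ones, and the gap between the highest structured and the lowest smooth library ran from 6.95 to 7.70 FPKM. Means were 8.00 ± 0.357 FPKM on smooth and 6.48 ± 0.355 FPKM on structured PEEK (SD, n = 4 per group). The transcript fell by 19.3% in the fit, a log2 fold change of -0.31 ± 0.05 (SE; 95% interval -0.43 to -0.19; edgeR adjusted p = 0.0157), and 120 tested genes had a smaller p. The fold stayed between -0.34 and -0.27 with each library left out in turn. The call was lost without structured 2 (adjusted p = 0.0544), without structured 4 (0.0579) and with the trend of GC content and length removed (-0.27, 0.0655).

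Summed neutrophil markers moved with the surface as well, at 15.3 to 17.5 FPKM on smooth PEEK. They stood at 22.9 FPKM in structured 1, where Sema4d was lowest, and at 56.7 to 61.4 FPKM in structured 2 to 4. Most of the smooth sum was Mmp9, which was lower on structured PEEK (13.0 to 14.2 FPKM, against 14.4 to 16.8 FPKM). S100a9, the most abundant of the called markers on structured PEEK, stood at 0 to 0.0892 FPKM on smooth PEEK. It had 3.58 FPKM in structured 1 and 20.9 to 25.7 FPKM in structured 2 to 4. The part of neutrophil transcripts in the Sema4d difference was not tested. With structured 1 as the only structured library its log2 fold change was -0.40 and the call was lost (adjusted p = 0.228), in a fit whose error comes from the smooth libraries alone and assumes that the lone library varies like them. Without smooth 1, structured 3 and structured 4, the libraries with the highest liver marker sums, it was -0.39 (edgeR adjusted p = 0.028).

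**Figure D3:**
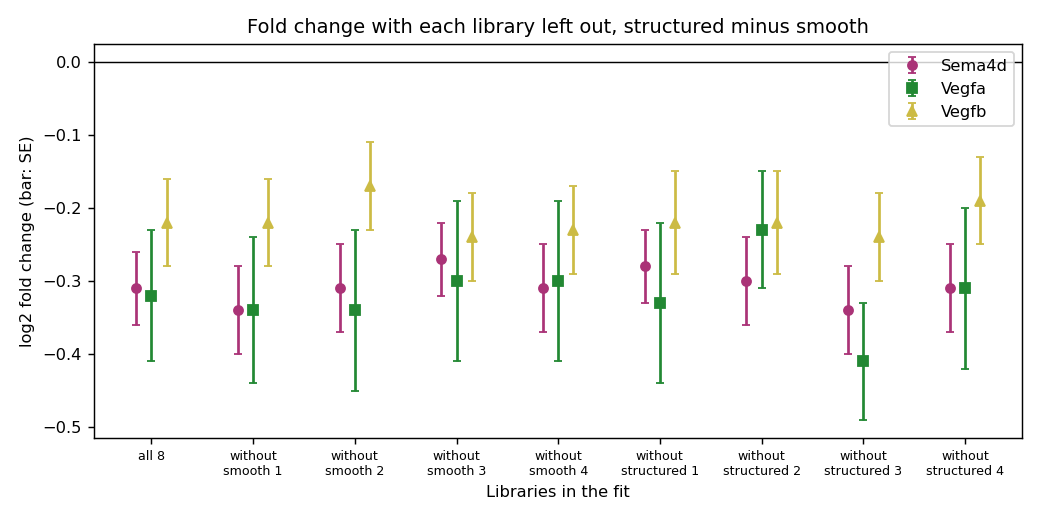
Log2 fold change of Sema4d (circles), Vegfa (squares) and Vegfb (triangles), structured minus smooth PEEK, with all 8 libraries and with each left out in turn, bars being the SE. All points lie under 0, Sema4d between -0.34 and -0.27, Vegfa between -0.41 and -0.23 and Vegfb between -0.24 and -0.17.

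Of 11 tested class 4 semaphorins and their receptors 3 were called lower and 1 higher, Sema4d included, and the median log2 fold change was 0.04. Over all tested genes 2.75% were called lower and 3.75% in either direction, and for 12.2% the surfaces did not overlap. Plxnb2, a plexin that binds Sema4d and the most abundant gene of the list, stood at 75.4, 76.9, 79.2 and 76.2 FPKM on smooth and at 71.2, 67.2, 71.8 and 66.6 FPKM on structured PEEK. Its groups did not overlap, and it fell by 0.16 ± 0.04 on the log2 scale (SE; edgeR adjusted p = 0.0407). Plxnd1, a plexin known from vessel patterning, stood at 11.5, 9.33, 10.1 and 10.7 FPKM on smooth and at 9.43, 8.13, 9.02 and 7.93 FPKM on structured PEEK, with structured 1 overlapping the smooth range. It fell by 0.27 ± 0.07 on the log2 scale (SE; edgeR adjusted p = 0.0496). Cd72, a receptor for Sema4d on leukocytes, went the other way, from 65.2, 64.4, 62.1 and 63.4 FPKM to 75.3, 70.0, 70.2 and 73.4 FPKM. Cd72 rose by 0.17 ± 0.03 on the log2 scale (SE; edgeR adjusted p = 0.0248), with no overlap, but it shares 1423 exon bases on the opposite strand with Tesk1 (11.9 FPKM), and whether the counting separated their reads by strand is not given.

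Plxnb2 and Cd72 kept theirs without smooth 1 or structured 3 and lost them without any other single library, with adjusted p values up to 0.128 and 0.085. With the trend of GC content and length removed the log2 fold change of Plxnb2 was -0.082 (adjusted p = 0.416), and with that trend estimated on abundant genes it was -0.089 (0.201). Removing the trend also ended the calls of Cd72 (0.16, adjusted p = 0.0989) and Plxnd1 (-0.22, 0.115). Plxnd1 kept its call without smooth 2 (0.0494), lost it without any other single library and reached 0.148. With the liver covariate Sema4d kept its call (-0.30, edgeR adjusted p = 0.0376), and Cd72, Plxnb2 and Plxnd1 lost theirs. Over the 22 alternatives, Sema4d passed in 18, Cd72 in 12, Plxnb2 in 6 and Plxnd1 in 5. Plxnb1, the high-affinity receptor of Sema4d on osteoblasts, is named here after its values were seen: it had 0.0243 FPKM on smooth and 0.0354 FPKM on structured PEEK. Of these receptors the cells held transcripts of Plxnb2 and Cd72 in plenty and of Plxnb1 at a trace.

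**Figure D4:**
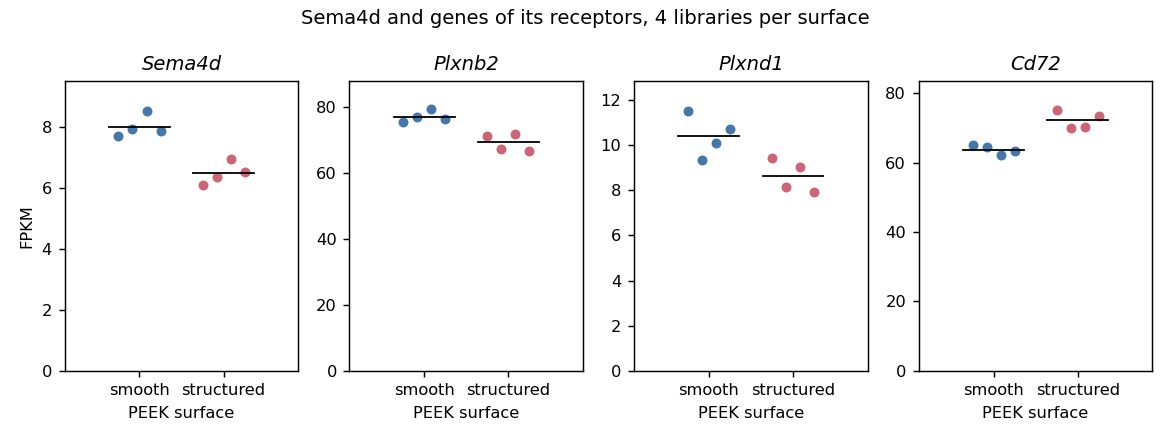
FPKM (linear axes from 0) of Sema4d, Plxnb2, Plxnd1 and Cd72 in the 4 smooth (blue) and 4 structured (red) libraries, with black lines at the group means. Sema4d and Plxnb2 are lower and Cd72 is higher in every structured library than in any smooth one, and Plxnd1 overlaps.

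The genes with the profile most like that of Sema4d, by Pearson correlation of log2 CPM over the 8 libraries among 6549 genes of at least 5 FPKM, were Plk1, a mitotic kinase (r = 0.991), Wdfy4, a factor of antigen cross-presentation in dendritic cells (0.989), and Lamc1, a laminin chain (0.988). The 8 points share their libraries and the difference between surfaces, and the value is a description without a test. Their log2 fold changes were -0.16, -0.18 and -0.14, each smaller than that of Sema4d.

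Hbegf (chr18:36504927-36515805, minus strand) stood at 0.487, 0.354, 0.254 and 0.193 FPKM on smooth and at 0.270, 0.252, 0.236 and 0.305 FPKM on structured PEEK, on 74 to 166 count units per library. All structured values lay inside the smooth range. The log2 fold change was -0.28 ± 0.27 (SE; 95% interval -0.88 to 0.33; edgeR adjusted p = 0.677), an interval that holds both 0 and the size seen for Sema4d. Single libraries moved the value, to -0.023 without smooth 1 and to -0.45 without smooth 4. Of 4 tested EGF family ligands and receptors none was called (median log2 fold change 0.14), and Erbb3, a receptor chain and the most abundant of them, had 3.48 ± 0.122 and 3.42 ± 0.0889 FPKM (SD, n = 4 per group; edgeR adjusted p = 0.846). Membrane-bound ligands such as HB-EGF, and semaphorin 4D as well, are released by metalloproteases. Of 8 tested genes of such proteases and their regulators 1 was called, Rhbdf2, whose product carries the protease ADAM17 to the cell surface. Over all tested genes 3.75% were called, and for 12.2% the surfaces did not overlap. Rhbdf2 fell by 0.20 ± 0.04 on the log2 scale (SE; edgeR adjusted p = 0.0304), from 14.4 ± 0.195 to 12.6 ± 0.664 FPKM (SD, n = 4 per group), with no overlap. Its call held without smooth 1 or structured 3 and was lost without any other single library (adjusted p up to 0.0901), and with the trend of GC content and length removed the log2 fold change was -0.10 (adjusted p = 0.327). Rhbdf2 passed in 7 of the 22 alternatives, and its call was lost with the liver covariate too. Adam17 itself, named after its values were seen, had 35.1 FPKM on smooth and 39.0 FPKM on structured PEEK, with no overlap and a log2 fold change of 0.15 ± 0.04 (SE; edgeR adjusted p = 0.0778). Adam8, the most abundant protease of the list, had 119.5 ± 1.19 and 110.1 ± 4.67 FPKM (SD, n = 4 per group), with no overlap and a log2 fold change of -0.12 ± 0.04 (SE; edgeR adjusted p = 0.0803).

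Sparc (chr11:55394500-55423183, minus strand) stood at 0.823, 0.620, 1.19 and 1.08 FPKM on smooth and at 1.42, 1.27, 0.813 and 0.520 FPKM on structured PEEK. The structured libraries held both the highest and the lowest values of the 8. The log2 fold change was 0.11 ± 0.30 (SE; 95% interval -0.55 to 0.77; edgeR adjusted p = 0.902), and its sign turned without smooth 2 (-0.038), structured 1 (-0.10) or structured 2 (-0.027). Sparc is typical of fibroblasts, osteoblasts and endothelial cells, whose markers were near 0: 10 fibroblast or osteoblast markers, each under 1 FPKM, summed to 0.510, 0.516, 0.483 and 0.534 FPKM in smooth 1 to 4 and to 0.690, 0.462, 0.213 and 0.204 FPKM in structured 1 to 4. Endothelial markers summed to 0.663, 0.526, 0.713 and 0.649 FPKM on smooth and 0.853, 0.752, 0.353 and 0.582 FPKM on structured PEEK. Structured 1 was the highest of the 8 libraries in Sparc and in both marker sums, and within the structured group Sparc and the fibroblast or osteoblast sum had the same order. On smooth PEEK they did not, since smooth 3 had the highest Sparc (1.19 FPKM) and the lowest of these sums (0.483 FPKM). The endothelial sum, like Sparc, was highest in smooth 3 (0.713 FPKM) and lowest in smooth 2 (0.526 FPKM) among the smooth libraries. On structured PEEK its lowest library was structured 3 (0.353 FPKM), where that of Sparc was structured 4 (0.520 FPKM). The part of such transcripts in the Sparc values was not tested. Of 3 tested genes of the SPARC family none was called (median log2 fold change -0.41), and Smoc1, the most abundant besides Sparc, had 0.251 ± 0.112 and 0.189 ± 0.0785 FPKM (SD, n = 4 per group; edgeR adjusted p = 0.671).

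**Figure D5:**
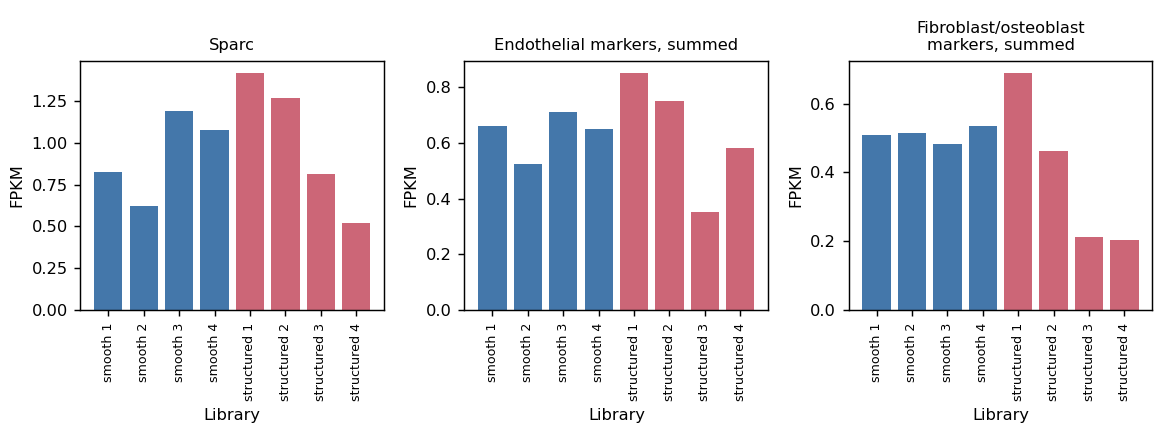
FPKM of Sparc (left), of 7 endothelial markers summed (middle) and of 10 fibroblast or osteoblast markers summed (right) in each library, smooth in blue and structured in red, 1 bar per library and so without error bars, all axes starting at 0. Structured 1 is the highest bar in each panel, at 1.42, 0.853 and 0.690 FPKM.

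Csf1 (chr3:107741048-107760469, minus strand) stood at 0.0911, 0.0570, 0.102 and 0.0668 FPKM on smooth and at 0.111, 0.0767, 0.134 and 0.123 FPKM on structured PEEK. In 3 structured libraries it lay above all smooth ones and structured 2 overlapped them. Means were 0.0793 ± 0.0209 and 0.111 ± 0.0248 FPKM (SD, n = 4 per group). For Csf1 the log2 fold change was 0.49 ± 0.35 (SE; edgeR adjusted p = 0.524), and its 95% interval of -0.28 to 1.26 takes in lower as well as much higher levels, so no difference was detectable from these libraries. Of 7 tested colony-stimulating factors and receptors none was called (median log2 fold change 0.01). Csf1r, the receptor of CSF-1 and a lineage gene of macrophages, was abundant and close on both surfaces, at 262.5 ± 4.42 and 265.6 ± 13.2 FPKM (SD, n = 4 per group; log2 fold change 0.01 ± 0.03 SE; edgeR adjusted p = 0.907). The cells carried much receptor transcript and little of the ligand, and Il34, the other ligand of this receptor, was too low to test.

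Of 15 tested other factors that act on bone and vessels, 1 was called higher and 1 lower (median log2 fold change -0.10). Tgfb1, a matrix-stored regulator of bone turnover, fell by 0.19 ± 0.04 on the log2 scale (SE; edgeR adjusted p = 0.0324), from 42.5 ± 1.40 to 37.5 ± 1.08 FPKM (SD, n = 4 per group). Its call held without smooth 1 or structured 3 and was lost without any other single library (adjusted p up to 0.107). It was also lost with the trend of GC content and length removed (0.138) and with the liver covariate. Tgfb1 passed in 10 of the 22 alternatives. Thbs1, thrombospondin-1, an inhibitor of vessel growth, stood at 0, 0.0327, 0.0142 and 0.0218 FPKM on smooth and at 0.646, 0.0949, 0.263 and 0.335 FPKM on structured PEEK, on 0 to 16 and 43 to 289 count units. The log2 fold change was 4.17 ± 0.74 (SE; 95% interval 2.55 to 5.79; edgeR adjusted p = 0.0163), a large ratio at a trace level, whose call was lost without smooth 3 (adjusted p = 0.0595) or structured 4 (0.0516), with voom (0.0758) and with limma on log2(FPKM + 0.5) (0.0854), passing in 12 of the 21 alternatives that gave an adjusted p. It shares 208 exon bases on the opposite strand with the noncoding gene Gm29233. Platelets also hold thrombospondin-1, and their markers summed to 0.492 to 0.845 FPKM on smooth and 0.290 to 0.663 FPKM on structured PEEK, structured 1 being the highest structured library in both. Structured 2 to 4 had platelet sums of 0.290 to 0.333 FPKM, under all smooth libraries, while their Thbs1 lay above all smooth values. The part of platelet transcripts was not tested. Plau, a urokinase and the most abundant gene of the list, had 115.6 ± 5.28 and 105.5 ± 7.57 FPKM (log2 fold change -0.14; edgeR adjusted p = 0.22). Over all 10 lists, 67 tested genes lay outside the members, 2 were called higher and 4 lower (8.96%, against 3.75% of all tested genes), and the median log2 fold change was -0.06. These lists were chosen with earlier results of the data known, so the share is a description.

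The members fell into a precise and an imprecise group. The SE of the log2 fold change was 0.04 to 0.10 for the 6 members above 3 FPKM and 0.27 to 0.35 for Sparc, Pdgfa, Hbegf and Csf1. A difference of the size measured for Sema4d, -0.31, lies inside the 95% intervals of Vegfa, Vegfb, Pdgfb, Hbegf, Pdgfa and Sparc and outside those of Spp1, Osm and Csf1, where the interval of Csf1 ends at -0.28.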

How the data were processed

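RNA of 8 libraries, 4 from each PEEK surface, was sequenced as read pairs. The libraries were made from poly(A) RNA with a dUTP-marked strand and adapters with molecular identifiers, per the labels' protocols. The submitters' processing notes name cutadapt 1.9 and HISAT2 2.2.1, an adapter trimmer and an aligner. Which counter, annotation, build and strand setting were used, and whether identifiers were collapsed, is not given in the sources used here. Gene values were deposited as estimated counts rounded to whole numbers, with library totals of 64479829 to 73098735 units. These are not plain fragments: the value 4 occurs 8018 times, 3 occurs 3344 times and 5 occurs 2180 times. FPKM values, scaled to gene length and depth, were deposited beside them, per the file headers. Positions are those of the table, and 9 of the 10 members, all but Sema4d, had the same position in GENCODE M21.

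From the counts, edgeR 4.0.16 (R 4.3.3) kept 16006 genes (filterByExpr, minimum count 10), scaled by TMM, and tested structured minus smooth by quasi-likelihood (two-sided), adjusted by Benjamini-Hochberg over all genes at 0.05. The fit was checked on simulated counts. FPKM is used for levels, with SD over 4 libraries. The members and gene lists were chosen with earlier results of these data known. Named outside the members are, per list, up to 4 called genes of smallest p and the most abundant one, and for Sema4d the 3 genes of highest correlation among those of mean FPKM 5 or more. Alternatives were no filter, DESeq2 size factors, DESeq2 1.42.0, limma 3.58.1 (voom, and log2 of FPKM plus 0.5, 0.1 or 1), counts divided by 4, a replicate block, each library left out, removal of the GC and length trend, and a liver marker covariate. Leaving out 3 libraries together and a GC trend estimated above log2 CPM 3 were chosen after seeing the data. The result of 1 marker list is not reported here. Plots used matplotlib 3.10.9 (Python 3.11.15).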

Additional observations from a re-analysis of the deposited data

Results flagged for a closer look

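Among 68 groups of 4 libraries examined, 5 held a library far from the other 3, where chance alone gives about 1 in 20 such groups, and none of the 5 concerns a member gene. Adam8 was lowest in smooth 4, at 117.7 FPKM, against 119.9 to 120.3 FPKM in the other smooth libraries. Summed platelet markers were highest in smooth 4 (0.845 FPKM, others 0.492 to 0.517 FPKM) and, on structured PEEK, in structured 1 (0.663 FPKM, others 0.290 to 0.333 FPKM). Summed skeletal muscle markers were highest of the structured libraries in structured 1, at 12.2 FPKM against 9.67 to 10.1 FPKM. Summed neutrophil markers were lowest of the structured libraries in structured 1, at 22.9 FPKM against 56.7 to 61.4 FPKM. The value was still above the 15.3 to 17.5 FPKM of the smooth libraries, most of which was Mmp9, a marker that was lower on structured PEEK.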

How the results depend on the processing

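Of the 10 members, Vegfa, Vegfb, Pdgfb, Sema4d, Hbegf and Csf1 kept the sign of their log2 fold change in every alternative that gave an adjusted p. DESeq2 gave no adjusted p for Pdgfa, Hbegf, Sparc, Csf1 and Thbs1, and their signs in it were not compared. Against 601 genes called in all, 189 were called without the filter, 1375 with DESeq2, 191, 242 and 187 with limma on FPKM plus 0.5, 0.1 and 1, 195 after removal of the GC and length trend, 394 with the liver covariate, 186 without smooth 1, structured 3 and structured 4, 7 without structured 2, 3 and 4, and 88 to 597 with 1 library left out. The share of calls that were lower was 73.2%, against 61.6% in DESeq2, 61.2% with the liver covariate, 64.1% with the trend removed and 57.5% with the trend estimated above log2 CPM 3. Members called numbered 3 with DESeq2 (Vegfa at -0.32, Vegfb at -0.21, Sema4d), 0 with the trend removed (Sema4d at -0.27), 2 with the trend estimated above log2 CPM 3 (Vegfb at -0.21, Sema4d), 0 without structured 2, 3 and 4 (Sema4d at -0.40) and 0 to 2 with 1 library left out. With 1 library left out, log2 fold changes ran from -0.34 to -0.27 for Sema4d, -0.41 to -0.23 for Vegfa, -0.24 to -0.17 for Vegfb, -0.12 to 0.32 for Pdgfa, -0.21 to -0.08 for Pdgfb, -0.035 to 0.022 for Osm, 0.016 to 0.079 for Spp1, -0.45 to -0.023 for Hbegf, 0.36 to 0.64 for Csf1 and -0.10 to 0.33 for Sparc. Signs turned for Pdgfa without smooth 3 (-0.12), for Osm without smooth 2 (0.022), structured 2 (0.007) or structured 3 (0.014), with the trend removed (0.031), with the trend estimated above log2 CPM 3 (0.033) and without structured 2, 3 and 4 (0.033), for Spp1 in the last 3 of these (-0.0083, -0.020, -0.029), and for Sparc without smooth 2 (-0.038), structured 1 (-0.10) or structured 2 (-0.027). Apart from the smaller number of samples in some fits, the cause was not tested. With a replicate block 499 genes were called, 125 higher and 374 lower, and 1 member, Sema4d (-0.31, adjusted p = 0.0171). The labels do not say whether the numbers pair the samples. Same-numbered libraries correlated at -0.062, 0.076, -0.004 and -0.159, values that do not settle it. Pdgfa, Hbegf, Sparc and Csf1 rest on 23 to 396 count units per library, and counting error was not separated from the spread between libraries.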
